A study of Mus musculus with 16 samples.

Results

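The genes of the motile cilium axoneme were followed in 16 cultures of mouse airway epithelium, each read on 1 Affymetrix array. A list of 52 gene symbols for axonemal dyneins, radial spokes, the central pair, nexin links, tektins and related cilium proteins set the members. Of these, 48 had a probe set annotated to that gene alone and were measured, among 18193 genes in all. Dnah10, Dnaaf3, Cfap44 and Cfap100 had no such probe set and are not analysed here. Dnai1 and Dnai2 were found under the older symbols Dnaic1 and Dnaic2. Where a gene had several probe sets, the brightest on average was used, and values are log2 intensities. All 48 lay above the background of 2.97 on the log2 scale (the level under which 95% of the readings fell for spiked-in control probe sets on arrays that lacked their transcript), as did 64.1% of all genes. They lie on 18 chromosomes, with at most 6 on any one, so they are not a block of neighbouring genes. How near each lies to the Mmp7 gene, which the null mice lack, was not examined.

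Cells came from C57BL/6 mice, with or without the Mmp7 gene in every cell, and were grown at an air-liquid interface, where one face of the cell sheet meets air and airway cells differentiate. The 4 groups of 4 cultures were Mmp7-null with scratch injury (3 scratches), Mmp7-null uninjured, wild-type with the same injury and wild-type uninjured. All cultures were kept without serum for 24 hours before RNA was taken. The labels give neither the age of the mice, nor the time between scratch and harvest, nor which cultures shared an animal, so p-values measure the spread between these cultures, which may be technical.

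The axoneme is the microtubule core of a motile cilium. Outer and inner dynein arms are the motors that slide its outer microtubules against each other, radial spokes and the central microtubules steer them, and nexin links hold neighbours together. Tektins and other proteins line the microtubules from inside. In the airway these proteins are made by multiciliated cells, whose beating cilia carry mucus, and the transcription factors Foxj1 and Rfx2 and Rfx3 are known to drive many of their genes.

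Mmp7, a secreted metalloproteinase of epithelium, read between 2.13 and 2.59 on every array and between 2.13 and 2.25 on the wild-type ones, below background, so it cannot check the genotype labels. Array medians lay between 9.343 and 10.153 on the linear scale. Spiked-in control transcripts fall into 3 sets that were treated as a possible batch. The Lys transcript marked 4 arrays, all Mmp7-null: replicates 1 and 2 without injury and replicates 1 and 4 with it. The Trpn transcript marked 6 arrays, all wild-type: replicates 2 to 4 of each state. The Phe transcript marked the other 6, which were replicates 3 and 4 of the uninjured and replicates 2 and 3 of the scratched Mmp7-null group, plus the first replicate of each wild-type group. Only the Phe arrays hold both genotypes. All 6 epithelial markers were above background, while 4 of 6 leukocyte markers (Ptprc, Itgam, Cd3e and Cd79a) and 4 of 6 fibroblast and muscle markers (Col1a1, Col1a2, Col3a1 and Pdgfra) were below it in their mean over all arrays.

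The axoneme genes were higher in Mmp7-null than in wild-type cultures, in both states. In uninjured cultures 29 of the 48 were higher at an adjusted p below 0.05 (limma, Benjamini-Hochberg over all genes) and 0 were lower, where 2.30% of all genes were higher and 2.50% lower (4.79% in all). The fitted difference was above 0 for all 48 genes, with a median of 0.60 and a range of 0.20 to 1.15 on the log2 scale, against a median of -0.01 over all genes. In scratched cultures 41 were higher and 0 were lower, where 3.29% of all genes were higher and 2.92% lower (6.21% in all). The difference was again above 0 for all 48, with a median of 0.76 and a range of 0.23 to 1.51, against -0.04 over all genes. An unadjusted p below 0.05 was reached by 43 of the 48 genes in uninjured and 45 in scratched cultures. Of all 18193 genes, 2817 and 4062 reached it. In bulk RNA, more cells of a type and more RNA per cell cannot be told apart.

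The genotype comparisons in the 2 states set different arrays against each other. Both take each gene's spread from the same fit to all arrays, so their calls are not independent. Leaving out wild-type scratched 4 changed the number of axoneme genes called in uninjured cultures from 29 to 34. All 29 genes called in uninjured cultures were also called in scratched ones, and 12 more were called in scratched cultures alone: Ak8, Ccdc113, Ccdc40, Cfap43, Cfap53, Cfap54, Dnah1, Dnah6, Dnah9, Dnai2, Hydin and Stk36. The remaining 7 passed in neither state, namely Cfap61, Dnah11, Dnah5, Ropn1l, Spag16, Spag17 and Tekt2. Over all genes, 264 of the 418 genes higher in uninjured cultures (and of the 599 higher in scratched cultures) were higher in both. A call in 1 state alone is not a difference between states, and the test of that difference is given with the scratch responses. The 4 Mmp7-null arrays all read above the 4 wild-type arrays for 41 genes in uninjured cultures, where 5.44% of all genes were separated this way and 6.22% the other way. In scratched cultures this held for 43 genes, where 4.19% of all genes were separated upward and 28.5% downward.

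**Figure D1:**
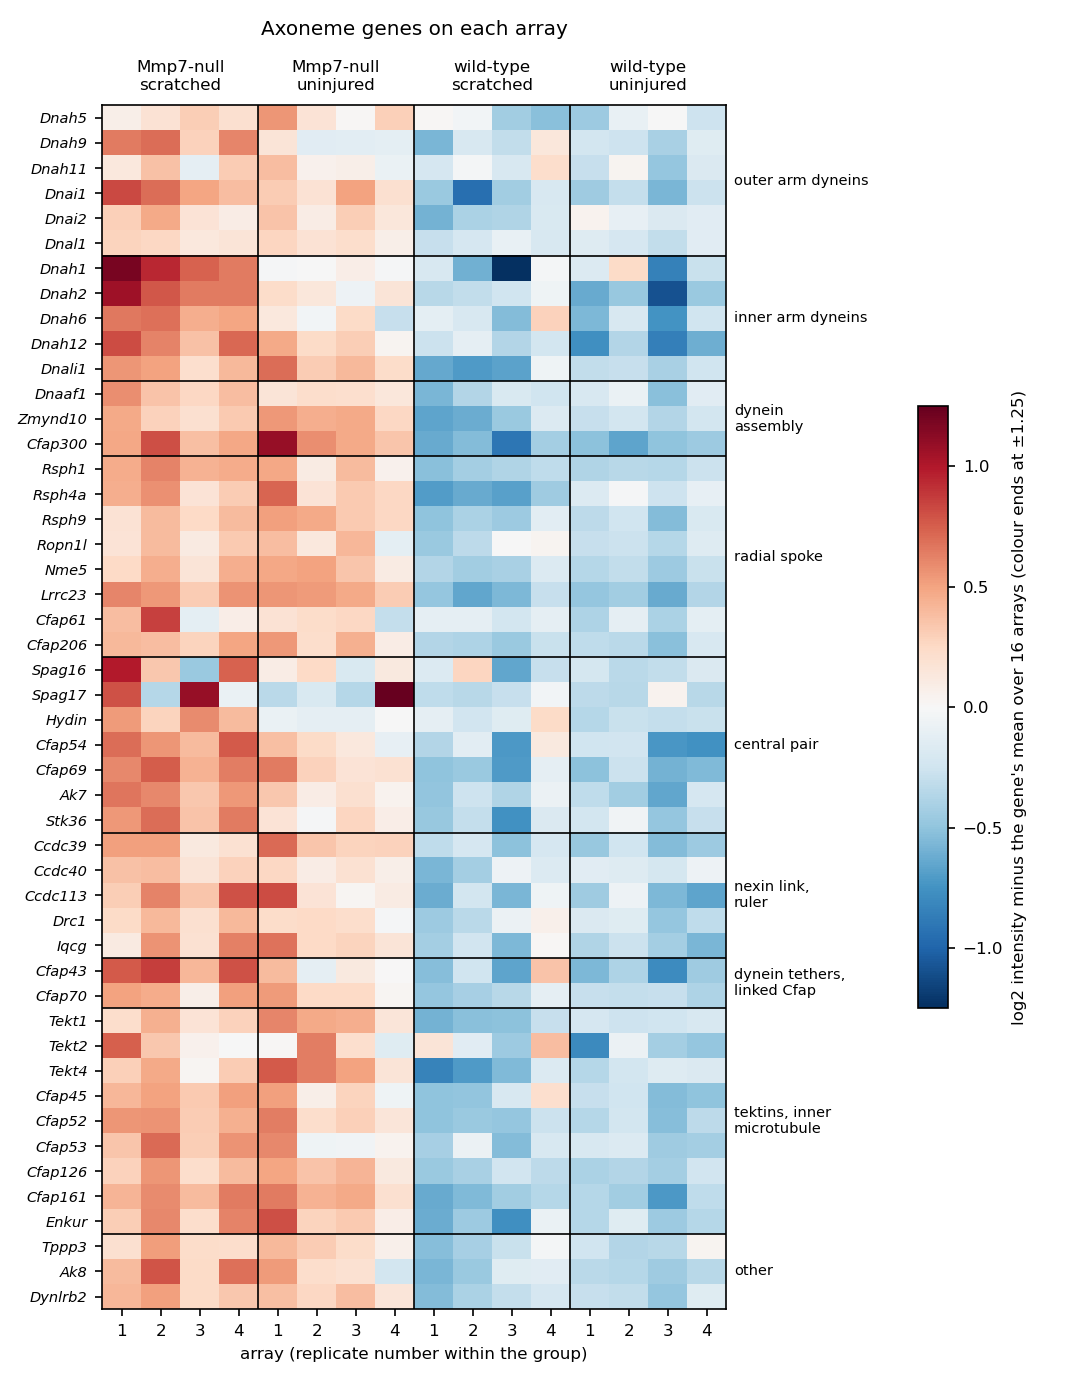
Log2 intensity of the 48 axoneme genes on each array (columns, by group and replicate) minus the gene's mean over 16 arrays, grouped by the part of the axoneme they build. Most genes are above their mean on the 8 Mmp7-null arrays and below it on the 8 wild-type arrays.

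Array by array, the median deviation of the 48 genes from their own means was 0.46, 0.53, 0.25 and 0.45 in scratched Mmp7-null cultures and 0.48, 0.22, 0.26 and 0.10 in uninjured Mmp7-null cultures. It was -0.48, -0.39, -0.44 and -0.16 in scratched wild-type cultures and -0.32, -0.26, -0.45 and -0.27 in uninjured wild-type cultures. All 8 Mmp7-null arrays thus lay above all 8 wild-type arrays, and the closest were uninjured Mmp7-null replicate 4 and scratched wild-type replicate 4, the array with the widest gap between 3′ and 5′ actin probe sets (2.62). On scratched Mmp7-null replicate 1 all 48 genes were above their mean, whereas only 1 was on scratched wild-type replicates 2 and 3 and on uninjured wild-type replicates 1, 3 and 4. Over genes above background the same median stayed between -0.11 and 0.06 on every array.

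**Figure D2:**
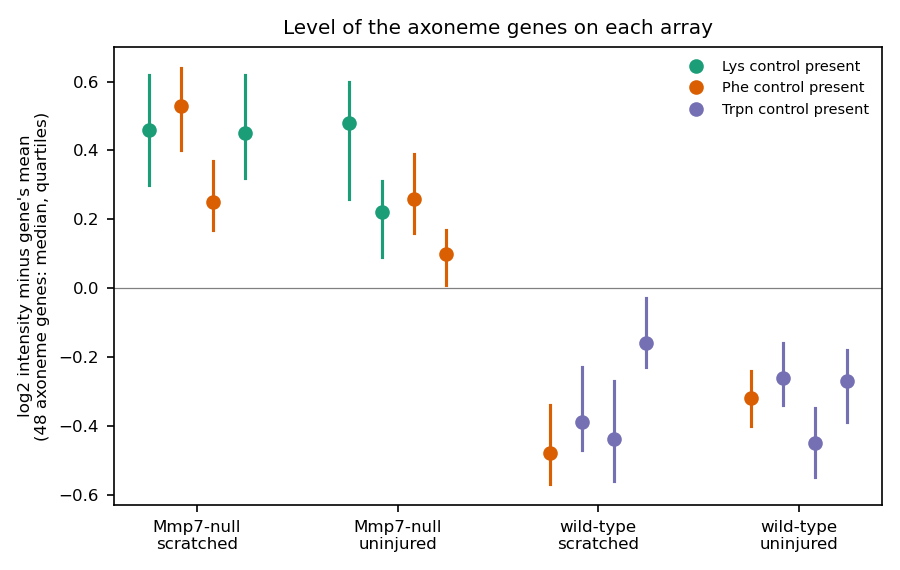
Median (point) and quartiles (bar) over the 48 axoneme genes of log2 intensity minus the gene's mean, for each of the 16 arrays, replicates 1 to 4 from left to right in each group and coloured by spiked-in control set. The 8 Mmp7-null arrays lie between 0.10 and 0.53 and the 8 wild-type arrays between -0.48 and -0.16.

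The median difference moved little when the control set was a block, but fewer genes passed. With the set as a block in the fit, the median difference was 0.60 in uninjured and 0.78 in scratched cultures, and above 0 for all 48 genes in both. In uninjured cultures the lowest value among inner arm dyneins, and the lowest in the central pair, rounded to 0. The calls then numbered 5 in uninjured cultures, where 0.181% of all genes were higher, and 27 in scratched cultures, where 0.841% were. The 5 were Dnah12, Zmynd10, Lrrc23, Cfap126 and Cfap161. Within the Phe arrays, with 2 Mmp7-null cultures against 1 wild-type culture in each state, the medians were 0.55 and 0.91, again with all 48 above 0. In this comparison, which takes its spread from all arrays and so assumes that the lone wild-type culture varies like the others, 0 genes passed in uninjured cultures (0.0220% of all genes) and 15 in scratched cultures (0.451%). Control set and genotype overlap heavily in this design, and the part of the set in the result can be read only from these values. Only the Phe arrays hold both genotypes. The block and the Phe comparison thus lean on the same wild-type Phe arrays and are not separate checks.

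**Figure D3:**
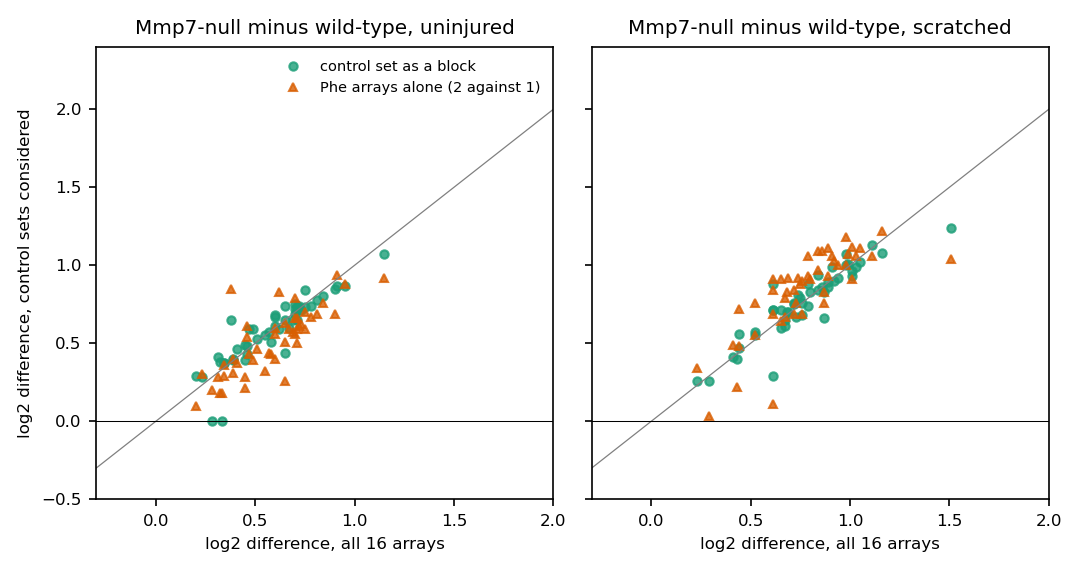
Genotype difference (Mmp7-null minus wild-type, log2) of each axoneme gene with the control set as a block (circles) or within the Phe arrays alone (triangles), against the difference over all 16 arrays, in uninjured (left) and scratched (right) cultures. The diagonal marks equal values, and no gene lies below 0 on either axis.

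The promoters were read for shared motifs, since the genes moved together. A window of 300 bases (250 before to 50 after the start, RefSeq, GRCm38.p6) was at hand for 41 of the 48 genes. The X-box, the motif bound by Rfx factors, was searched as GTNNCC and GGNNAC separated by 1 to 3 bases, a pattern that reads the same on both strands. It was in the windows of 8 of the 41 genes (19.5%), against 1082 of 27025 genes with a window (4.00%). The forkhead motif GTAAACA, searched on both strands, was in 2 of the 41 (4.9%), Ak7 and Cfap43, against 4.05% of all, and in Cfap43 it did not overlap the X-box. A match describes the letters of the window and does not show binding. The 8 X-box stretches are printed with 10 bases on either side and the matched half-sites in capitals, so that their spacers of 1 base (3 genes) or 2 bases (5 genes) can be compared. Each is written on the strand of its gene, 5′ to 3′.
Cfap126: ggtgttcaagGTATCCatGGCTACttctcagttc
Cfap206: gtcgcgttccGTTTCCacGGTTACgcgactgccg
Cfap43: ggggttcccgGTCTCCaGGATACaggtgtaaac
Lrrc23: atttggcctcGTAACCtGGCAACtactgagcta
Ropn1l: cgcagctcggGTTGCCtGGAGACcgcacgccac
Rsph9: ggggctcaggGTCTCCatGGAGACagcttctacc
Tekt4: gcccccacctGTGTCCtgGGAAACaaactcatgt
Zmynd10: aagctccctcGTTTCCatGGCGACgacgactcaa

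The Cfap126 stretch is chr1:171122953-171122986 on the plus strand, and the one of Cfap206 is chr4:34730206-34730239 on the minus strand. The stretches of Cfap43 (chr19:47837411-47837443) and Lrrc23 (chr6:124779869-124779901) lie on the minus strand, as do those of Ropn1l (chr15:31453687-31453719) and Rsph9 (chr17:46144183-46144216). The plus strand holds those of Tekt4 (chr17:25471420-25471453) and Zmynd10 (chr9:107547294-107547327). In Cfap206, Ropn1l, Rsph9 and Zmynd10 the X-box begins between position -23 and the start itself (position 0), whereas it begins at -164 in Lrrc23 and at -160 in Tekt4. The median difference between genotypes was 0.70 for these 8 genes and 0.58 for the other 33 with a window in uninjured cultures, and 0.78 against 0.74 in scratched cultures. The uninjured differences ran from 0.47 to 0.95 with the searched pattern and from 0.20 to 1.15 without it, so they overlapped. Only this pattern was searched, so windows without it may hold other forms of the X-box. The whole window of Lrrc23, the gene with the smallest p of the 48 in both states, is chr6:124779678-124779977 on the minus strand, with the X-box in capitals.
Lrrc23: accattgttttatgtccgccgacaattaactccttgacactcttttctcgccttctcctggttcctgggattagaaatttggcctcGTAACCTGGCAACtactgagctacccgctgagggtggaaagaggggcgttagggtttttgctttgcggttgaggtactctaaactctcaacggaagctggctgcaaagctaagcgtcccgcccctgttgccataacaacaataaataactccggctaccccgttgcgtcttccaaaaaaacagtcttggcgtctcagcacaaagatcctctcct

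**Figure D4:**
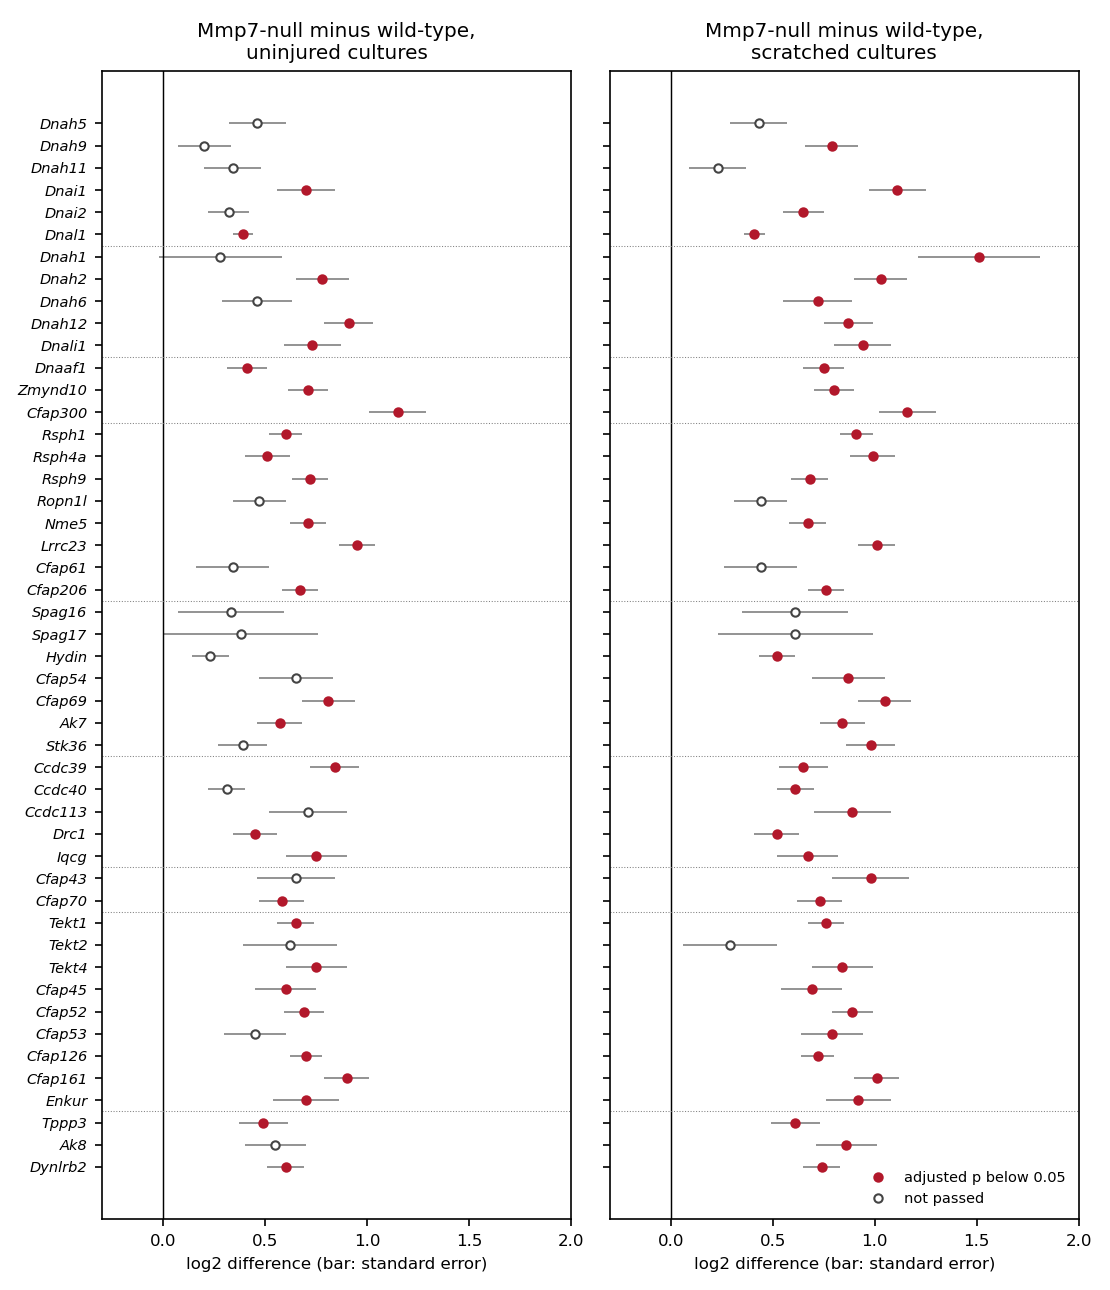
Difference between Mmp7-null and wild-type cultures (log2, bar: standard error from limma) for each axoneme gene in uninjured (left) and scratched (right) cultures, with dotted lines between the classes. Filled points passed an adjusted p of 0.05, as 29 genes did in uninjured and 41 in scratched cultures, and every point lies above 0.

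Among the 6 outer arm dynein genes, 2 were higher in uninjured and 4 in scratched Mmp7-null cultures, and 0 and 4 with the control set as a block. Dnal1, a light chain of the outer arm, read 9.11, 9.02, 9.06 and 8.91 in uninjured Mmp7-null cultures, against 8.68, 8.63, 8.53 and 8.70 in uninjured wild-type cultures. The difference was 0.39 (1.31-fold, SE 0.05, limma adjusted p = 0.0011), a small change with a small spread and no overlap of the groups. In scratched cultures it was 0.41 (adjusted p = 6e-04). Dnai1, an intermediate chain that anchors the outer arm, read 5.42, 5.29, 5.08 and 4.98 in scratched Mmp7-null cultures, against 4.13, 3.65, 4.16 and 4.39 in scratched wild-type cultures. All 4 Mmp7-null values were higher, by 1.11 on average (2.16-fold, SE 0.14, adjusted p = 0.00048). In uninjured cultures Dnai1 read 4.91, 4.77, 5.09 and 4.79 in Mmp7-null and 4.15, 4.29, 4.02 and 4.32 in wild-type, a difference of 0.70 (SE 0.14, adjusted p = 0.011). Its partner chain Dnai2 differed by 0.65 (adjusted p = 0.0012) in scratched cultures and by 0.32 in uninjured ones, where it did not pass (adjusted p = 0.084).

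The 3 outer arm heavy chains, the motor subunits, moved less evenly. Dnah9 was higher by 0.79 in scratched cultures (SE 0.13, adjusted p = 0.0024) and differed by 0.20 in uninjured ones (adjusted p = 0.58). Dnah5 differed by 0.46 and 0.43 and Dnah11 by 0.34 and 0.23 in uninjured and scratched cultures, and neither passed in either state. The 95% interval for Dnah11 in scratched cultures reached from -0.07 to 0.53, which holds both 0 and values as large as those of some called genes.

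All 5 measured inner arm genes were higher in scratched and 3 in uninjured Mmp7-null cultures, with median differences of 0.94 and 0.73 in that order of states. In the fit with the control set as a block, 3 were called in scratched cultures and 1, Dnah12, in uninjured ones. Dnah12, a single-headed inner arm heavy chain, read 8.06, 7.82, 7.89 and 7.62 in uninjured Mmp7-null cultures, against 6.82, 7.22, 6.73 and 6.98 in uninjured wild-type cultures. The lowest Mmp7-null array was above the highest wild-type array, and the difference was 0.91 (1.88-fold, SE 0.12, adjusted p = 0.00095). Scratched cultures gave 8.40, 8.21, 7.95 and 8.30 in Mmp7-null and 7.32, 7.47, 7.22 and 7.36 in wild-type, a difference of 0.87 (adjusted p = 0.00082). Dnah2, a heavy chain of the 2-headed inner arm dynein, was higher by 0.78 in uninjured (adjusted p = 0.0038) and 1.03 in scratched Mmp7-null cultures (adjusted p = 0.00052). The light chain Dnali1 was higher by 0.73 and 0.94, and the heavy chain Dnah6 by 0.72 in scratched cultures (adjusted p = 0.02). The Dnah6 call was lost without Mmp7-null scratched 1 or 2 or wild-type scratched 2 or 3 (highest adjusted p = 0.059).

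Dnah1, another inner arm heavy chain, had the largest scratched difference of the 48 and one of the widest spreads. It read 6.40, 6.15, 5.95 and 5.86 in scratched Mmp7-null cultures, against 5.01, 4.61, 3.51 and 5.19 in scratched wild-type cultures. The difference was 1.51 (2.85-fold, SE 0.30, adjusted p = 0.0088), and wild-type replicate 3 stood far below its group. In uninjured cultures it read 5.20, 5.21, 5.29 and 5.20 in Mmp7-null and 5.04, 5.45, 4.37 and 4.93 in wild-type. These groups overlapped, with a difference of 0.28 (SE 0.30, adjusted p = 0.91). With the control set as a block the scratched difference was 1.24 and did not pass (adjusted p = 0.25).

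The 3 measured dynein assembly factors, cytoplasmic proteins that build dynein arms before they enter the cilium, were higher in both states. All 3 were still called in scratched cultures with the control set as a block, but only Zmynd10 was in uninjured ones. Cfap300 read 8.76, 8.26, 8.15 and 8.02 in uninjured Mmp7-null cultures, against 7.16, 7.02, 7.17 and 7.22 in uninjured wild-type cultures. The groups were well apart, Mmp7-null replicate 1 being the highest, and the difference of 1.15 (2.23-fold, SE 0.14, adjusted p = 0.00068) was the largest of the 48 in this state, though with the block it was 1.07 and did not pass (adjusted p = 0.057). Scratched cultures gave 8.16, 8.48, 8.05 and 8.16 in Mmp7-null and 7.05, 7.13, 6.77 and 7.25 in wild-type, a difference of 1.16 (adjusted p = 0.00041). Cfap300 lies on chromosome 9, and its distance from Mmp7 was not examined. Zmynd10, which works with chaperones on dynein heavy chains, read 8.49, 8.40, 8.42 and 8.21 in uninjured Mmp7-null cultures, against 7.66, 7.72, 7.58 and 7.72 in uninjured wild-type cultures. It was higher by 0.71 (SE 0.10, adjusted p = 0.0011), and by 0.80 in scratched cultures (adjusted p = 0.00035), and it kept its call with the block in both (adjusted p = 0.044 and 0.016). Dnaaf1 was higher by 0.41 and 0.75, and its uninjured call was lost without Mmp7-null uninjured 1, 2 or 3 or wild-type uninjured 1 or 3 (highest adjusted p = 0.076).

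Of the 8 radial spoke genes, 6 were higher in each state, namely Rsph1, Rsph4a, Rsph9, Nme5, Lrrc23 and Cfap206. The block for the control set left all 6 called in scratched cultures, but only Lrrc23 in uninjured ones. Lrrc23, a spoke protein, read 11.07, 11.05, 11.00 and 10.84 in uninjured Mmp7-null cultures, against 10.04, 10.09, 9.89 and 10.16 in uninjured wild-type cultures. The replicates lay close together in both groups, and the difference was 0.95 (1.93-fold, SE 0.09, adjusted p = 7e-05). In scratched cultures Lrrc23 read 11.13, 11.06, 10.84 and 11.08 in Mmp7-null and 10.04, 9.87, 9.96 and 10.23 in wild-type, a difference of 1.01 (adjusted p = 3.6e-05). It passed with the control set as a block (0.87 and 0.93, adjusted p = 0.014 and 0.0064). Rsph9, a protein of the spoke head, read 9.88, 9.84, 9.69 and 9.62 in uninjured Mmp7-null cultures, against 9.04, 9.11, 8.82 and 9.17 in uninjured wild-type cultures. Its difference was 0.72 (SE 0.09, adjusted p = 0.00093), and it was 0.68 in scratched cultures (adjusted p = 0.00086). Ropn1l, a spoke stalk protein, and Cfap61, of the spoke base, differed by 0.44 each in scratched cultures and did not pass (adjusted p = 0.059 and 0.17).

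Of the 7 central pair genes, 2 were higher in uninjured and 5 in scratched Mmp7-null cultures, with median differences of 0.39 and 0.84. The block left 0 called in uninjured and 3 in scratched cultures. Cfap69, a central pair protein, read 9.08, 9.24, 8.92 and 9.12 in scratched Mmp7-null cultures, against 7.98, 8.02, 7.78 and 8.37 in scratched wild-type cultures. The difference was 1.05 (2.07-fold, SE 0.13, adjusted p = 0.00041), with the lowest Mmp7-null array well above the highest wild-type array. In uninjured cultures Cfap69 read 9.13, 8.77, 8.65 and 8.67 in Mmp7-null and 7.97, 8.22, 7.89 and 7.93 in wild-type, a difference of 0.81 (adjusted p = 0.003). Ak7, an adenylate kinase of cilia, read 9.42, 9.18, 9.29 and 9.13 in uninjured Mmp7-null cultures, against 8.77, 8.65, 8.44 and 8.88 in uninjured wild-type cultures. The mean difference was 0.57 (SE 0.11, adjusted p = 0.0084), and it was 0.84 in scratched cultures (adjusted p = 0.00054).

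Stk36, a kinase needed to build the central pair, was higher by 0.98 in scratched cultures (SE 0.12, adjusted p = 0.00047) and differed by 0.39 in uninjured ones (adjusted p = 0.1). Cfap54 was likewise higher by 0.87 in scratched cultures. Hydin was higher by 0.52 in scratched cultures (adjusted p = 0.0031), a call it lost with the block (adjusted p = 0.065), and differed by 0.23 in uninjured ones (adjusted p = 0.19). Spag16 and Spag17 were among the most variable members, with standard errors of 0.26 and 0.38. Their differences of 0.61 each in scratched cultures did not pass (adjusted p = 0.19 and 0.31). A second, dimmer probe set of Spag17, with a mean of 3.44 on the log2 scale, differed by 1.03 there, in the same direction. It passed (limma adjusted p = 0.013 over all probe sets) where the set used did not. Spag16 was at 0.00 in uninjured cultures with the control set as a block.

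All 5 genes of the nexin link and the axonemal ruler were higher in scratched and 3 in uninjured Mmp7-null cultures. With the control set as a block only Ccdc40 was still called in scratched cultures and 0 were in uninjured ones, although the class medians were 0.65 and 0.71. Ccdc39, a coiled-coil protein of the ruler that sets the axonemal repeat, read 10.20, 9.83, 9.77 and 9.78 in uninjured Mmp7-null cultures, against 9.01, 9.24, 8.95 and 9.03 in uninjured wild-type cultures. The difference was 0.84 (1.79-fold, SE 0.12, adjusted p = 0.0013), without overlap. In scratched cultures it was 0.65 (adjusted p = 0.0049). Iqcg, a subunit of the nexin link, read 8.0, 7.57, 7.60 and 7.48 in uninjured Mmp7-null cultures, against 6.95, 7.05, 6.90 and 6.75 in uninjured wild-type cultures. It was higher by 0.75 (SE 0.15, adjusted p = 0.01), and by 0.67 in scratched cultures (adjusted p = 0.016). The scratched call was lost without Mmp7-null scratched 2 or wild-type scratched 3 (highest adjusted p = 0.053). Ccdc113, a coiled-coil protein linked to this complex, read 8.38, 8.69, 8.42 and 8.87 in scratched Mmp7-null cultures, against 7.45, 7.84, 7.50 and 8.02 in scratched wild-type cultures. The mean difference was 0.89 (SE 0.19, adjusted p = 0.014), while the uninjured difference of 0.71 narrowly missed (adjusted p = 0.053). Ccdc40, the partner of Ccdc39, was higher by 0.61 in scratched cultures and differed by 0.31 in uninjured ones (adjusted p = 0.081). Drc1, another nexin link subunit, was higher by 0.45 and 0.52, and its uninjured call was lost without replicate 1 or 3 of either uninjured group, Mmp7-null uninjured 2 or wild-type uninjured 4 (highest adjusted p = 0.096).

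Both measured genes of the dynein tethers and dynein-linked proteins were higher in scratched Mmp7-null cultures, and 1, Cfap70, with the control set as a block. Neither was called in uninjured cultures with the block. Cfap43, a tether protein in algae and ciliates, read 9.11, 9.21, 8.76 and 9.14 in scratched Mmp7-null cultures, against 7.81, 8.10, 7.69 and 8.70 in scratched wild-type cultures. The groups nearly touched at Mmp7-null replicate 3 and wild-type replicate 4, and the difference was 0.98 (SE 0.19, adjusted p = 0.0071). The uninjured difference of 0.65 did not pass (adjusted p = 0.075). Cfap70, an outer arm protein first described in algae, read 8.17, 7.89, 7.89 and 7.67 in uninjured Mmp7-null cultures, against 7.35, 7.34, 7.35 and 7.26 in uninjured wild-type cultures. Its difference was 0.58 (SE 0.11, adjusted p = 0.0098), and it was 0.73 in scratched cultures (adjusted p = 0.0018).

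Of the 9 tektins and other proteins inside the microtubules, 7 were higher in uninjured and 8 in scratched Mmp7-null cultures, and 2 and 5 with the control set as a block. Cfap161 read 9.44, 9.22, 9.26 and 8.99 in uninjured Mmp7-null cultures, against 8.43, 8.35, 8.07 and 8.47 in uninjured wild-type cultures. The difference was 0.90 (1.86-fold, SE 0.11, adjusted p = 0.00046). Scratched cultures gave 9.21, 9.38, 9.18 and 9.44 in Mmp7-null and 8.16, 8.24, 8.35 and 8.43 in wild-type, a difference of 1.01 (adjusted p = 0.00015), again with clear space between the groups. Cfap126, also called Flattop and needed to dock and place basal bodies in mouse multiciliated cells, read 11.16, 11.02, 11.09 and 10.78 in uninjured Mmp7-null cultures, against 10.27, 10.30, 10.24 and 10.42 in uninjured wild-type cultures. It was higher by 0.70 (SE 0.08, adjusted p = 0.00052), and by 0.72 in scratched cultures (adjusted p = 3e-04). Both genes kept their calls with the control set as a block in both states. Tekt1 and Tekt4 were higher by 0.65 and 0.75 in uninjured cultures and by 0.76 and 0.84 in scratched cultures. The uninjured calls of Cfap45 and Enkur were each lost without any of several single arrays (highest adjusted p = 0.13 and 0.073), replicates 1 and 3 of both uninjured groups and wild-type uninjured 4 among them. Cfap53 differed by 0.45 in uninjured cultures without passing (adjusted p = 0.11) and was higher by 0.79 in scratched ones. Tekt2 passed in neither state, with differences of 0.62 and 0.29 (SE 0.23).

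The 3 remaining members were a cytoplasmic dynein light chain, a tubulin-binding protein and an adenylate kinase. With the control set as a block only Dynlrb2 was called in scratched cultures and 0 were in uninjured ones. Dynlrb2, the light chain, read 12.58, 12.47, 12.59 and 12.36 in uninjured Mmp7-null cultures, against 11.92, 11.90, 11.72 and 12.06 in uninjured wild-type cultures. Its difference was 0.60 (1.51-fold, SE 0.09, adjusted p = 0.0014), and it was 0.74 in scratched cultures (adjusted p = 0.00028), without overlap. Tppp3, which binds and bundles microtubules, read 11.86, 11.78, 11.69 and 11.52 in uninjured Mmp7-null cultures, against 11.21, 11.09, 11.11 and 11.49 in uninjured wild-type cultures. The groups almost met, at replicate 4 of each, and the difference was 0.49 (SE 0.12, adjusted p = 0.031). That call was lost when any one of replicates 1 to 3 of either uninjured group was left out (highest adjusted p = 0.11). In scratched cultures Tppp3 was higher by 0.61 (adjusted p = 0.0074). Ak8, the adenylate kinase, read 7.44, 7.83, 7.28 and 7.73 in scratched Mmp7-null cultures, against 6.47, 6.58, 6.89 and 6.90 in scratched wild-type cultures. The mean difference was 0.86 (SE 0.15, adjusted p = 0.0044), and the uninjured difference of 0.55 did not pass (adjusted p = 0.063).

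The scratch comparisons ask what injury did to the same genes in each genotype. They share arrays with the genotype comparisons and with the test of their difference. In Mmp7-null cultures 3 of the 48 genes were higher after scratching and 0 were lower, where 4.72% of all genes changed (2.27% higher and 2.45% lower). The median difference was 0.13, with 40 genes above 0 and 15 at an unadjusted p below 0.05 (3161 of all 18193 genes). In wild-type cultures 1 gene was lower and 0 were higher, where 4.85% of all genes changed (2.55% higher and 2.30% lower). The median there was 0.00, with 23 genes above 0 and 25 below. An unadjusted p below 0.05 was found for 7 of the 48, and for 2993 of all 18193 genes. All 4 scratched arrays lay above all 4 uninjured arrays for 10 genes in Mmp7-null cultures, where 4.10% of all genes did so and 8.72% lay below. In wild-type cultures 3 genes were separated upward and 3 downward, against 4.21% and 5.82% of all genes. With arrays centred on their medians the wild-type split was 17 above and 31 below. Without wild-type scratched 4, whose actin probe sets differed between the 3′ and 5′ ends by 2.62 on the log2 scale against 1.53 to 1.93 on the other arrays, the calls numbered 6 in Mmp7-null and 3 in wild-type cultures. Most members thus showed no scratch change that passed, and the share that did in Mmp7-null cultures was near that of all genes.

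The 3 genes higher after scratching in Mmp7-null cultures were heavy chains and a central pair protein. Hydin, a very large protein of the central pair, read 6.80, 6.54, 6.85 and 6.66 in scratched Mmp7-null cultures, against 6.18, 6.15, 6.15 and 6.26 in uninjured Mmp7-null cultures. The difference was 0.53 (1.44-fold, SE 0.09, limma adjusted p = 0.0042), and the groups did not overlap. In wild-type cultures Hydin read 6.15, 6.02, 6.11 and 6.50 after scratching and 5.91, 5.98, 5.97 and 5.98 without, a difference of 0.24 that did not pass (adjusted p = 0.17). Dnah2 read 6.65, 6.36, 6.24 and 6.24 in scratched Mmp7-null cultures, against 5.82, 5.73, 5.52 and 5.75 in uninjured ones. It was higher by 0.67 (1.59-fold, SE 0.13, adjusted p = 0.011). In wild-type cultures it read 5.24, 5.28, 5.34 and 5.53 after scratching and 4.96, 5.11, 4.50 and 5.12 without, a difference of 0.43 without overlap that did not pass (adjusted p = 0.092).

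Dnah9 read 6.48, 6.53, 6.12 and 6.44 in scratched Mmp7-null cultures, against 5.99, 5.69, 5.70 and 5.71 in uninjured Mmp7-null cultures. The mean difference was 0.62 (1.53-fold, SE 0.13, adjusted p = 0.015), and the call was lost without Mmp7-null uninjured 2 (adjusted p = 0.05). In wild-type cultures it read 5.26, 5.63, 5.53 and 5.97 after scratching and 5.60, 5.57, 5.43 and 5.68 without, groups that overlapped, with a difference of 0.03. Within the Lys or the Phe arrays alone, with 2 Mmp7-null cultures in each state, 0 of these 3 calls were kept, although Hydin, Dnah2 and Dnah9 differed by 0.49 to 0.67 there.

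Rsph4a, a protein of the radial spoke head, was the gene lower after scratching in wild-type cultures. It read 8.23, 8.30, 8.25 and 8.48 in scratched wild-type cultures, against 8.75, 8.91, 8.67 and 8.82 in uninjured wild-type cultures. The difference was -0.47 (0.72-fold, SE 0.11, adjusted p = 0.029), and all 4 scratched arrays were below all 4 uninjured ones. The call was lost without wild-type uninjured 1, 2 or 4 or wild-type scratched 1, 2 or 3 (highest adjusted p = 0.09). In Mmp7-null cultures Rsph4a read 9.38, 9.50, 9.10 and 9.24 after scratching and 9.65, 9.10, 9.25 and 9.18 without, a difference of 0.01. Between genotypes it was higher in Mmp7-null cultures by 0.99 when scratched (adjusted p = 0.00024) and by 0.51 when uninjured (adjusted p = 0.02). The uninjured call was lost without wild-type uninjured 1 or 3 (highest adjusted p = 0.063).

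**Figure D5:**
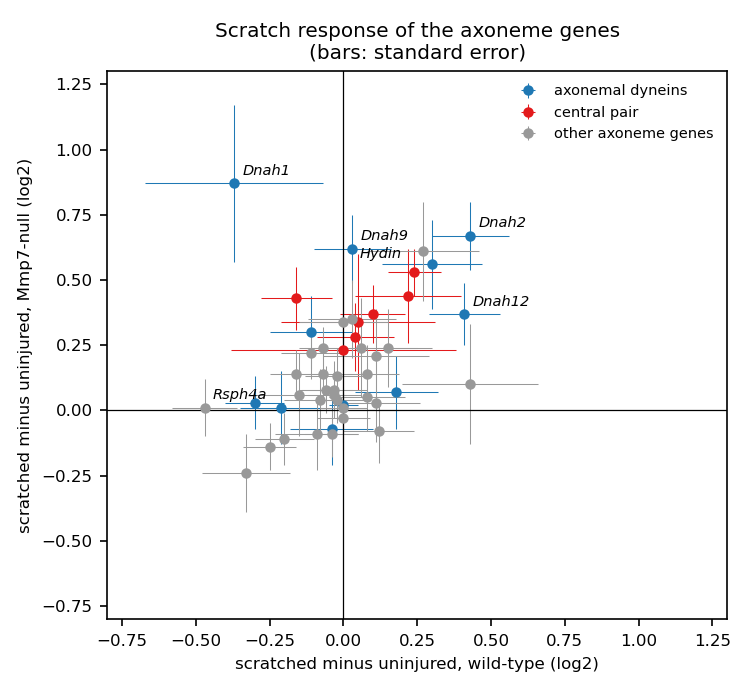
Scratch response (scratched minus uninjured, log2, bars: standard error) of the 48 axoneme genes in Mmp7-null cultures (vertical) against wild-type cultures (horizontal), coloured by dyneins, central pair and the rest. Hydin, Dnah2 and Dnah9 passed in Mmp7-null cultures and Rsph4a in wild-type cultures, and most other points lie near 0 on both axes.

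Whether the scratch response differed between genotypes was tested as an interaction in the same limma fit. It called 0 of the 48 genes, where 0.132% of all genes passed (0.0275% upward and 0.104% downward). An unadjusted p below 0.05 was found for 9 of the 48, and for 1417 of all 18193 genes. The median difference of responses was 0.17 (Mmp7-null minus wild-type), with 39 genes above 0 and a range of -0.33 to 1.24. Stk36 had the smallest p of the 48 (0.60, 95% interval 0.22 to 0.98, adjusted p = 0.33), followed by Dnah9 (0.59, interval 0.19 to 0.99, adjusted p = 0.38). For Rsph4a it was 0.48 (interval 0.14 to 0.83, adjusted p = 0.44) and for Dnah1 1.24 (interval 0.31 to 2.16, adjusted p = 0.47). With a typical standard error of 0.18 for this contrast, differences of the size of the list's median were not detectable with 4 cultures a group.

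The members also varied together among replicates of one group. After the group means were taken off, the median correlation between pairs of the 48 genes over the 16 arrays was 0.53 (quartiles 0.30 and 0.68, 1128 pairs). The mean was 0.45 for these pairs and 0.10 for all genes above background. These points share arrays and normalization, so the values are a description. Dnah11 (median r with the other members 0.71), Enkur (0.69) and Cfap52 (0.69) followed the list most closely. At the other end were Spag17 (-0.41), Dnah5 (-0.21) and Hydin (0.10). Dnah5, Spag17 and Spag16 (0.19), all without a genotype call, were among the least correlated, whereas Dnah11, also without one, was not.

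Probe sets that were not used gave a second reading of the same genes. For 20 genes there were 27 further probe sets, of which 10 were above background. All 10 had the same sign as the probe set used in both genotype comparisons, with medians of 0.68 and 0.87 against 0.70 and 0.92 for the sets used. Only 2 and 4 of them passed on their own. Spag17 was the one gene whose further set passed where the set used did not. For Dnal1 the further set differed by 0.98 in uninjured and 0.14 in scratched cultures and passed in neither. Probe sets of a gene share its RNA, so they are not replicates.

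Cilium genes outside the list were also counted. Of 56 other axoneme genes, 18 were higher in uninjured and 27 in scratched Mmp7-null cultures and 0 were lower, with medians of 0.36 and 0.52. Most did not pass, and 9 in uninjured and 11 in scratched cultures had a difference below 0. Morn5 was higher by 1.08 (SE 0.12, adjusted p = 0.00044) and 1.20 (adjusted p = 0.00013), and Lrrc34 by 0.84 and 1.11. Of 26 genes for intraflagellar transport, which carries cargo along the cilium, 9 and 17 were higher and 0 were lower, with medians of 0.29 and 0.42 and with 2 below 0 in scratched cultures. Ift46, a subunit of the cargo complex, was higher by 0.79 (SE 0.07, adjusted p = 5.6e-05) and 0.55 (adjusted p = 0.00036). With the control set as a block the counts were 1 and 8 for the other axoneme genes and 2 and 5 for intraflagellar transport, with medians of 0.39 and 0.57 and of 0.29 and 0.45.

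Among 19 regulators of multiciliogenesis and tubulins, 8 were higher in uninjured and 10 in scratched Mmp7-null cultures. With the block, 3 and 7 were. Deup1, a scaffold on which multiciliated cells build their many centrioles, averaged 9.48 in scratched Mmp7-null, 9.84 in uninjured Mmp7-null, 8.43 in scratched wild-type and 9.01 in uninjured wild-type cultures. It was higher in Mmp7-null by 1.05 when scratched (SE 0.08, adjusted p = 9.8e-06), and after scratching it fell by 0.36 in Mmp7-null cultures (adjusted p = 0.014) and by 0.58 in wild-type cultures (adjusted p = 0.00038). Myb, a transcription factor of early multiciliated cells, was higher by 1.07 in scratched Mmp7-null cultures (SE 0.06, adjusted p = 5.7e-07).

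Foxj1, the transcription factor that switches on motile cilium genes, averaged 9.63 in scratched Mmp7-null, 9.55 in uninjured Mmp7-null, 8.69 in scratched wild-type and 9.03 in uninjured wild-type cultures. Its genotype difference was 0.93 in scratched (adjusted p = 5e-04) and 0.52 in uninjured cultures (adjusted p = 0.023). Of the 7 measured markers of multiciliated cells outside the list (Foxj1 among them), 5 and 4 were higher in those states, and 3 and 0 with the control set as a block. Tmem212 and Ccdc153 did not pass in either state. The summed intensity of the 7 ran from 7160 to 9174 in scratched Mmp7-null and from 6407 to 9112 in uninjured Mmp7-null cultures. It ran from 5069 to 6679 in scratched wild-type and from 5195 to 6113 in uninjured wild-type cultures, so the genotypes did not overlap within either state.

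Markers of other cell types were read in the same way, as sums of intensity and gene by gene. Sums of 6 club cell markers were 104249 to 124328 in scratched Mmp7-null against 106738 to 118001 in scratched wild-type cultures, and 95452 to 109563 in uninjured Mmp7-null against 99804 to 114721 in uninjured wild-type cultures. Sums of 6 basal cell markers were 14878 to 18376 against 18082 to 19050 in scratched cultures of those genotypes, and 21626 to 23598 against 20117 to 22769 in uninjured ones. Both sets overlapped between genotypes in each state, as did the sums of the 5 measured alveolar type 2, the 6 leukocyte and the 6 epithelial markers.

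Other sums did not overlap. The 6 goblet cell markers, of which Muc5ac, Foxa3 and Tff2 were below background, summed to 1916 to 2858 in scratched Mmp7-null against 4003 to 4424 in scratched wild-type cultures, while the uninjured groups overlapped (598 to 1005 against 622 to 749). The 6 alveolar type 1 markers summed to 15693 to 19261 in scratched Mmp7-null against 23084 to 26623 in scratched wild-type cultures, and to 18893 to 22709 in uninjured Mmp7-null against 25219 to 26137 in uninjured wild-type cultures. The 6 fibroblast and smooth muscle markers summed to 274 to 544 in scratched Mmp7-null against 164 to 267 in scratched wild-type cultures, and to 172 to 279 in uninjured Mmp7-null against 93 to 124 in uninjured wild-type cultures. The alveolar sum was thus lower in Mmp7-null cultures on every array, and the fibroblast and muscle sum higher within each state. Such linear sums mostly follow their brightest markers. Acta2 averaged 6.2 to 8.37 in the 4 groups, and no other fibroblast or muscle marker averaged above 3.73. Aqp5 averaged 13.5 to 13.99, and no other alveolar type 1 marker above 12.03. Agr2 weighed most in the goblet sum, Lyz2 in the leukocyte sum and Krt15 in the basal sum.

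Single markers also passed between genotypes. Sftpc, a surfactant protein of alveolar type 2 cells, was higher by 1.5 in uninjured (limma adjusted p = 0.00017) and 1.80 in scratched Mmp7-null cultures (adjusted p = 3.6e-05). Acta2, the actin of smooth muscle, was higher by 1.37 (adjusted p = 0.0082) and 1.10 (adjusted p = 0.023). The collagen markers were below background in their mean over all arrays. Col3a1 averaged 3.73, above background, in scratched Mmp7-null and 2.71 in scratched wild-type cultures. That difference of 1.01 did not pass (adjusted p = 0.17). Of the alveolar type 1 markers, Ager differed by -2.29 and -2.35, Cldn18 by -2.46 and -2.05 and Hopx by -0.34 and -0.66, and all of these passed, as did Aqp5 in scratched cultures (-0.41). In scratched cultures Agr2 of goblet cells was lower by a difference of -0.74 (adjusted p = 0.0045), Cd68 of macrophages by one of -0.92 (adjusted p = 0.0012) and Abca3 of alveolar type 2 cells by one of -0.43 (adjusted p = 0.012), and Hp (0.86) and Krt14 (0.53) were higher. In uninjured cultures Krt5 (-0.36) and Cdh1 (-0.23) were lower. With the control set as a block, 0 of the fibroblast and muscle, basal, goblet, leukocyte and epithelial markers passed in either state. The alveolar type 1 calls were then 2 in uninjured and 3 in scratched cultures, all lower. Alveolar type 2 markers had 1 call in each state, a higher one, and club cell markers had 1, in scratched cultures alone. The part of these other cells in the axoneme differences was not tested.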

How the data were processed

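The deposited table holds 1 intensity per probe set and array on a linear scale, which the authors made with RMA per the submitters' processing notes; its version is not given in the sources used here. It lists 45101 probe sets, the number in the annotation supplied and more than the array type given by the labels would hold. The deposited intensities were converted to log2 with no further normalization. The 64 control probe sets, 932 with several symbols and 9160 with none were left out. Gene differences were fitted on all 18193 genes and 16 arrays with limma 3.58.1 in R 4.3.3 (a mean per group, eBayes, 12 residual degrees of freedom), adjusted by Benjamini-Hochberg over all genes at 0.05, and the code was tested on simulated data. No dim genes were filtered out. The number of arrays limits the precision; the median standard error over the members was 0.13 for the genotype comparisons.

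The members, gene lists and tests were chosen with earlier results of these data known. Per-array values are given for 24 genes: in each class the 2 with the smallest p between uninjured genotypes and the one with the largest scratched difference, and every member called for scratch. Other members are named where a count or comparison needs them. Same-numbered arrays were treated as unpaired, since the labels do not say which cultures shared an animal. Of 24 same-numbered pairs of arrays, 5 had deviations correlated above 0.1 (range -0.22 to 0.31). These values cannot show whether cultures were paired. No 2 arrays were identical (highest r 0.9984). Alternatives were a replicate block, the 8 arrays compared, removal of the dimmest 40% of genes, the mean of a gene's probe sets, a trended robust variance, centring, repeated quantile normalization, the control set as a block, comparisons within a set, and leaving out each array or 3 doubtful ones: wild-type scratched 3 and Mmp7-null scratched 1, with the lowest upper quartiles (6.84 and 6.891, others from 6.972), and wild-type scratched 4, whose gap between 3′ and 5′ actin probe sets was 2.62 (others 1.53 to 1.93), a sign of RNA quality. Promoter windows came from RefSeq (GRCm38.p6).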

Additional observations from a re-analysis of the deposited data

Results flagged for a closer look

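Among the 24 genes with values on every array, 96 groups of 4 arrays were examined for an array lying apart from the rest of its group. Chance alone flags about 1 in 20 such groups, and 7 were found. In uninjured Mmp7-null cultures, Dnah1 read 5.29 on replicate 3 and 5.20 to 5.21 on the others, Ccdc39 read 10.20 on replicate 1 and 9.77 to 9.83 on the others, and Dnah9 read 5.99 on replicate 1 and 5.69 to 5.71 on the others. In scratched Mmp7-null cultures, Cfap70 read 7.72 on replicate 3 and 8.11 to 8.16 on the others, and Tppp3 read 11.98 on replicate 2 and 11.66 to 11.69 on the others. In uninjured wild-type cultures, Cfap70 read 7.26 on replicate 4 and 7.34 to 7.35 on the others, and Ak8 read 6.60 on replicate 3 and 6.69 to 6.71 on the others. For Dnah1, and for both wild-type genes, the gap was at most 0.09 on the log2 scale.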

How the results depend on the processing

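The median genotype difference stayed above 0 in both states under every setting run, and fewer genes were called once the control sets were considered. With the set as a block the calls were 5 in uninjured and 27 in scratched cultures. Within the Phe arrays, a setting chosen after seeing the data, they were 0 and 15, and the medians of the scratched difference and of the interaction were 0.91 and 0.37. The scratch calls in Mmp7-null cultures numbered 7 without the dimmest 40% of genes, 5 with repeated quantile normalization, and 0 within the Lys or the Phe arrays. Those in wild-type cultures numbered 2 without the dimmest genes, 2 with repeated quantile normalization, 2 without the 3 doubtful arrays (where Zmynd10 and Ccdc40 passed and Rsph4a did not), and 0 within the Trpn arrays. Fewer arrays enter each comparison within a set; other causes were not tested.

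Leaving out each array in turn gave 23 to 34 calls and medians of 0.53 to 0.68 for genotype in uninjured cultures, and 39 to 42 calls and medians of 0.72 to 0.84 in scratched cultures. Scratch gave 2 to 6 calls and medians of 0.06 to 0.18 in Mmp7-null cultures, with the 6 calls without wild-type scratched 4, and 0 to 3 calls and medians of -0.07 to 0.02 in wild-type cultures, with the 3 calls without the same array. The interaction gave 0 calls and medians of 0.10 to 0.25. Calls over all genes moved with single arrays too. In uninjured cultures they numbered 872 with all arrays, 480 without Mmp7-null uninjured 1 and 925 without Mmp7-null uninjured 4. Of the called axoneme genes, 23 of 29 and 39 of 41 kept their genotype call without any single array. With the replicate number as a block, 26 and 41 genes were called in the genotype comparisons and the scratch counts were unchanged at 3 and 1.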
